A study of Mus musculus with 17 samples.

Results

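Induced pluripotent stem cells that lack Nanog were compared with the Nanog-null embryonic stem cells (ESC) of the line they came from. The comparison used 6 of the 17 RNA-seq libraries of the series, chosen by their titles: 4 libraries of Nanog-null induced pluripotent stem cells (iPSC) and 2 of Nanog-null ESC. The iPSC libraries were a pair from clone G2 and a pair from clone G5. All 6 carry the genotype Nanog -/-, the strain 129/B6 (v6.5), passage 6 and the code prefix AC, so no batch term was needed. A gene was counted as changed when it passed the test in G2 and in G5, each against Nanog-null ESC, with the same sign. Both contrasts used the same 2 Nanog-null ESC libraries, so a deviation of that pair enters both with the same sign. The calls in G2 and G5 are therefore not independent of each other. Both kinds of cell were kept on feeder cells in 2i and LIF, that is, with inhibitors of the kinases MEK and GSK3 and with leukaemia inhibitory factor. For the iPSC, parental Nanog -/- ESC had first been placed into blastocysts, and Nanog-null fibroblasts (MEF) were sorted at E12.5 from the embryos by their constitutive GFP. These fibroblasts were infected with retroviruses for murine Oct4, Sox2 and Klf4. A c-Myc virus was added for some lines, and the labels do not give whether G2 or G5 was among them. Colonies were picked on day 20 and passaged every 5 days. Each clone and the parental ESC are a single line, and no label states that libraries with the same group came from separate cultures. As further references, 1 WT iPSC library (passage 6) and 2 WT ESC libraries (passages 10 to 15) shared the strain and the AC prefix. So did 2 libraries of partially reprogrammed WT cells (passage 6), which entered the fits of all AC libraries. WT MEF (passage 2) and further WT iPSC and WT ESC (passages 10 to 15) came from strain c57/b6 with the prefix JI. The labels name 2 sequencing instruments without assigning libraries to them. The p-values below therefore cover the spread between libraries and not that between independently derived lines.

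Nanog is a homeodomain transcription factor that stabilises the naive pluripotent state of the epiblast and holds back primitive endoderm, the extraembryonic layer that forms beside it. ESC can be propagated without it, and retroviral Oct4, Sox2, Klf4 and c-Myc return fibroblasts to an ESC-like state. Cells that reach this state by reprogramming and cells taken directly from an ESC line can differ in imprinted genes, in traces of the cell of origin and in the share of cells in fluctuating states.

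The 6 libraries held 17682401 to 43501951 assigned fragments, the highest total in Nanog-null ESC 2 and the lowest in G2 2. Between 12586 and 12680 genes reached an FPKM (fragments per kilobase of transcript, scaled to the mapped fragments of the library) of at least 1. Pou5f1, which encodes Oct4, stood at 553 and 507 FPKM in the G2 libraries, 591 and 613 FPKM in the G5 libraries and 592 and 589 FPKM in the Nanog-null ESC libraries, and the difference did not pass the test in either clone (edgeR quasi-likelihood test, adjusted p = 0.09997 and 0.258). Fibroblast genes were read from a list of 35 markers. Their summed level was 3583 and 3702 FPKM in G2, 2085 and 2100 FPKM in G5, 3069 and 3001 FPKM in Nanog-null ESC, and 19970 and 20080 FPKM in WT MEF. Clone G2 thus lay above Nanog-null ESC in this sum and clone G5 below it. All 35 markers were above 0 in all 6 libraries, and since the cells grew on feeders, fragments from feeder fibroblasts are not separated in these tables. Their part in the results was not tested, and counts without the genes enriched in WT MEF are given with the results.

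Nanog itself gave 27.2 and 27.8 FPKM in the G2 libraries, 39.99 and 42.98 FPKM in the G5 libraries and 45.8 and 49.5 FPKM in the Nanog-null ESC libraries. A WT iPSC library and WT ESC libraries of the same code prefix and strain had 762 FPKM and 568 and 574 FPKM. All 6 Nanog-null libraries lay far below WT, and the iPSC libraries lay below the Nanog-null ESC libraries without overlap (log2 difference -0.78 ± 0.060 SE in G2 and -0.24 ± 0.058 SE in G5; edgeR adjusted p = 2.97e-11 and 0.00103). The tables hold a value per gene, so they do not show which part of the targeted gene these fragments came from. With both clones as one group the call on Nanog was lost. Among the reprogramming factors, Sox2 fell to 41.5 and 41.8 FPKM in G2 and 38.5 and 39.8 FPKM in G5, against 51.3 and 52.4 FPKM in Nanog-null ESC. Myc, a driver of growth and ribosome production, fell to 9.1996 and 11.002 FPKM in G2 and 6.95 and 8.22 FPKM in G5, against 20.6 and 16.9 FPKM in Nanog-null ESC. Klf4 stood at 26.5 and 24.9 FPKM in the G2 libraries, 20.7 and 20.5 FPKM in the G5 libraries and 30.4 and 27.9 FPKM in the Nanog-null ESC libraries, which passed the test in both clones; the call was lost without Nanog-null ESC 1, without G2 2 and with the clones as one group. Fragments of the murine retroviral cDNAs and of the endogenous genes are not told apart in these values.

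Of 15600 genes tested outside chromosome Y, 4523 differed in both clones in the same direction, which is 29.0%. Of these, 2251 were higher in Nanog-null iPSC (14.4%) and 2272 were lower (14.6%). In 4283 of the called genes the 4 iPSC libraries did not overlap the 2 ESC libraries. The calls were made on the same libraries, so this count adds no separate support. Most changes were small: 338 genes were at least 2-fold higher in both clones (2.17%) and 240 at least 2-fold lower (1.54%). Taken alone, 7109 genes (45.6%) differed in G2 and 8043 (51.6%) in G5, and 486 differed in both clones in opposite directions. The clones also differed from each other in 5871 genes (37.6%), among them 1540 of the 4523. The counts changed with the fit. In a fit of all 17 libraries with a term for code prefix, 993 genes passed, and with the clones as one group 3201 passed. Without 2280 genes enriched in WT MEF, 3830 of the remaining genes passed. Because these are bulk samples, fewer cells of a type and less RNA per cell cannot be told apart.

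**Figure D1:**
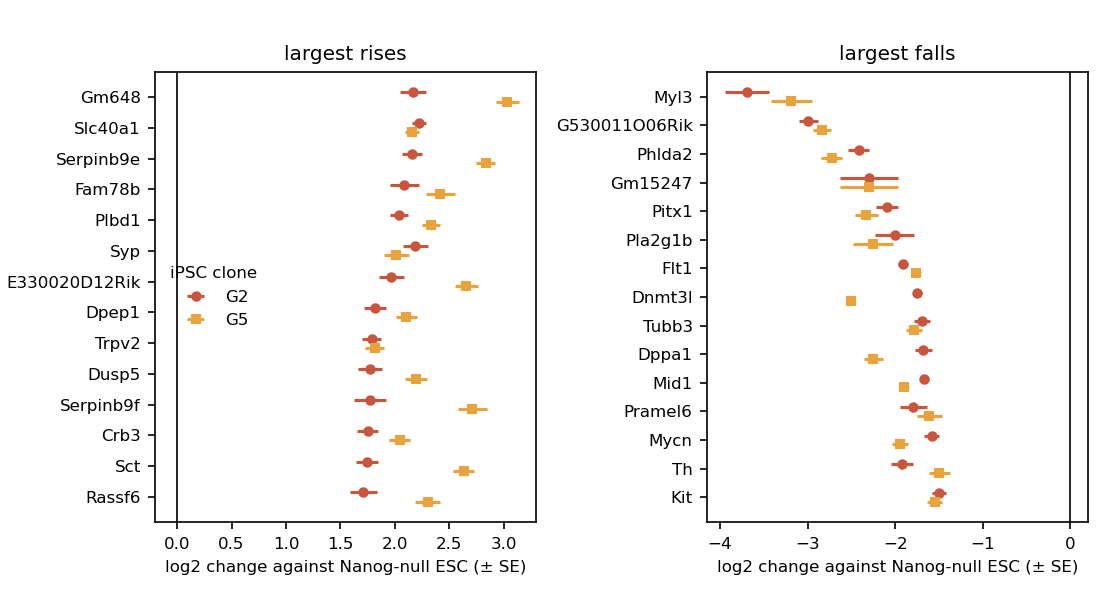
Log2 change against Nanog-null ESC for genes with the largest rises (left) and falls (right) in both clones. Points are the edgeR estimates of clone G2 and clone G5, bars are ± SE, and all points of a panel lie on the same side of 0.

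The largest rises, taken by the smaller of the 2 clones' changes among genes with a mean of at least 5 FPKM in a group, included an iron exporter and genes of a serpin cluster. Slc40a1, which encodes the iron exporter ferroportin, had 28.1 and 27.6 FPKM in the G2 libraries, 28.2 and 25.5 FPKM in the G5 libraries and 5.63 and 6.26 FPKM in the Nanog-null ESC libraries (log2 2.22 ± 0.064 SE and 2.15 ± 0.064 SE; edgeR adjusted p = 3.42e-20 and 2.28e-20). The 4 iPSC libraries were nearly level, whichever the clone, and well above the ESC pair. Serpinb9e, a relative of the granzyme B inhibitor Serpinb9, rose by log2 2.15 in G2 and 2.84 in G5. Serpinb9f rose by 1.77 in G2 and 2.71 in G5. Related copies of this cluster can share fragments, so single members are uncertain. Sct, the gene of the hormone secretin, reached 54.998 and 50.8 FPKM in G2 and 104 and 93.8 FPKM in G5, against 13.9 and 16.6 FPKM in Nanog-null ESC. Syp, which encodes a synaptic vesicle protein, had 10.2 and 12.8 FPKM in G2 and 10.5 and 8.42 FPKM in G5, against 2.995 and 2.03 FPKM in Nanog-null ESC. Others among the first 15 were Gm648, Fam78b, Plbd1, E330020D12Rik, the dipeptidase gene Dpep1, the cation channel gene Trpv2, the nuclear ERK phosphatase gene Dusp5, the apical polarity gene Crb3 and Rassf6. Their log2 changes in G2 lay between 1.71 (Rassf6) and 2.17 (Gm648).

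The largest falls included an imprinted growth regulator and a cofactor of DNA methylation. Phlda2, a maternally expressed gene that restrains placental growth, fell to 36.8 and 35.1 FPKM in G2 and 29.8 and 28.99 FPKM in G5, against 217 and 170.4 FPKM in Nanog-null ESC (log2 -2.42 ± 0.12 SE and -2.72 ± 0.12 SE; edgeR adjusted p = 4.38e-07 and 1.65e-07). Dnmt3l, a catalytically inactive partner of the de novo DNA methyltransferases, fell to 38.7 and 39.5 FPKM in G2 and 23.6 and 22.4 FPKM in G5, against 130.3 and 131 FPKM in Nanog-null ESC (log2 -1.74 ± 0.052 SE and -2.51 ± 0.055 SE; edgeR adjusted p = 4.54e-20 and 1.61e-23). All 4 iPSC libraries were far below both ESC libraries for each gene, and for Dnmt3l clone G5 was below clone G2 as well (edgeR adjusted p = 2.21e-11). Mid1, an X-linked gene for a microtubule-associated ubiquitin ligase, was among the most abundant of the group, with 150.2 and 139 FPKM in the G2 libraries, 125 and 124 FPKM in the G5 libraries and 472 and 454 FPKM in the Nanog-null ESC libraries. Myl3, a muscle myosin light chain gene, had the largest fall of all 15 (log2 -3.69 in G2 and -3.18 in G5), on levels of 0.453 and 0.353 FPKM in G2, 0.514 and 0.995 FPKM in G5 and 6.15 and 5.13 FPKM in Nanog-null ESC. Flt1, a receptor gene for VEGF, fell by log2 1.91 in G2 and 1.76 in G5, while Kdr, the gene of another VEGF receptor, rose by 1.61 in G2 and 0.98 in G5. Kit, the stem cell factor receptor gene, fell by 1.496 in G2 and 1.55 in G5, and Mycn by 1.58 in G2 and 1.94 in G5. The homeobox gene Pitx1, the neuronal tubulin gene Tubb3, the tyrosine hydroxylase gene Th, Pla2g1b, Dppa1, Pramel6, G530011O06Rik and Gm15247 made up the rest.

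**Figure D2:**
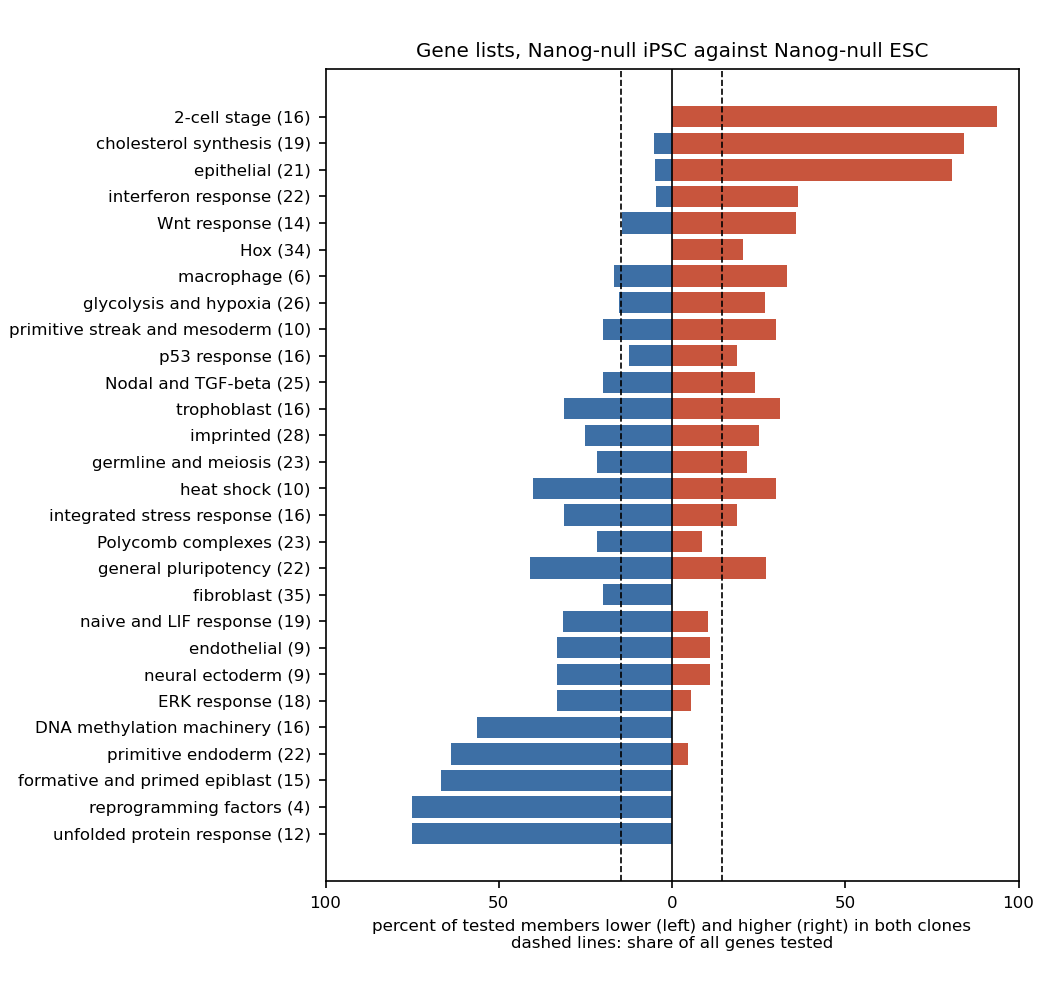
Percent of each list's tested members that were lower (left) or higher (right) in both Nanog-null iPSC clones than in Nanog-null ESC, with the share over all 15600 genes as dashed lines. The 2-cell, cholesterol and epithelial lists lie furthest to the right, and the unfolded protein, formative and primitive endoderm lists furthest to the left.

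Genes of the 2-cell stage rose together. These genes are switched on when the embryonic genome first becomes active, and in ESC cultures they are expressed by a small, fluctuating share of cells, where Dux activates many of them. Of 20 listed genes 16 were tested, and 15 were higher in both clones, against 14.4% of all genes, with 0 lower in edgeR, also at an unadjusted p under 0.05, and 0 in DESeq2 and limma. The median log2 change was 0.92 in G2 and 1.95 in G5, against 0.0071 and -0.010 over all genes. Zscan4c, a telomere-linked gene of this state, had 17.1 and 16.9 FPKM in the G2 libraries, 28.1 and 35.2 FPKM in the G5 libraries and 8.49 and 9.24 FPKM in the Nanog-null ESC libraries (log2 0.93 ± 0.090 SE and 1.82 ± 0.086 SE; edgeR adjusted p = 8.85e-08 and 1.62e-12). Zscan4f had 21.03 and 24.4 FPKM in the G2 libraries, 44.1 and 50.4 FPKM in the G5 libraries and 12.9 and 9.43 FPKM in the Nanog-null ESC libraries, and the transcription factor gene Dux had 1.75 and 1.502 FPKM in the G2 libraries, 3.83 and 3.85 FPKM in the G5 libraries and 1.16 and 1.17 FPKM in the Nanog-null ESC libraries. In each gene the order was the same: G5 highest, G2 between, Nanog-null ESC lowest, with no overlap. Tmem92 and Sp110, further genes of this state, reached 21.6 and 23.5 FPKM and 24.1 and 25.3 FPKM in G5, against 4.42 and 4.35 FPKM and 4.87 and 5.79 FPKM in Nanog-null ESC. Pramef6 rose by log2 1.55 in G2 and 2.37 in G5, and Dub2a, a deubiquitinase gene, by 1.16 in G2 and 1.90 in G5. Gm4340 rose by 1.28 in G2 and 2.11 in G5, a call lost without Nanog-null ESC 2 and without G2 1. The G2 call on Dux was the weakest (edgeR adjusted p = 0.0439) and was lost in DESeq2, with the clones as one group and without any 1 of the G2 or Nanog-null ESC libraries. The only tested member that did not pass was Eif1a (107 and 112 FPKM in the G2 libraries, 110.3 and 116 FPKM in the G5 libraries and 109 and 115 FPKM in the Nanog-null ESC libraries). G2 was below G5 in 15 of the 16 (edgeR adjusted p under 0.05), while 37.6% of all genes differed between the clones. Members of the Zscan4, Usp17l (Dub) and Pramef families have near-identical copies among which fragments could be split, so single members are uncertain. Only 5 of the 16 passed in both clones in the fit of all 17 libraries. A WT iPSC library of the same code prefix had a summed level of 771 FPKM, against 212 and 208 FPKM in WT ESC. The sum was 222 and 226 FPKM in G2, 321 and 351 FPKM in G5 and 171 and 174 FPKM in Nanog-null ESC. Eif1a, which did not change, made up most of the Nanog-null ESC sums. WT MEF still summed to 118 and 125 FPKM with 13 of the 17 members at 0. The median log2 iPSC-minus-ESC change of the list was 2.62 in WT of the AC prefix, against 0.0082 over all genes. This WT value rests on 1 WT iPSC library. WT iPSC 2 and 3, of the other prefix and strain, had sums of 85.1 and 79.6 FPKM.

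**Figure D3:**
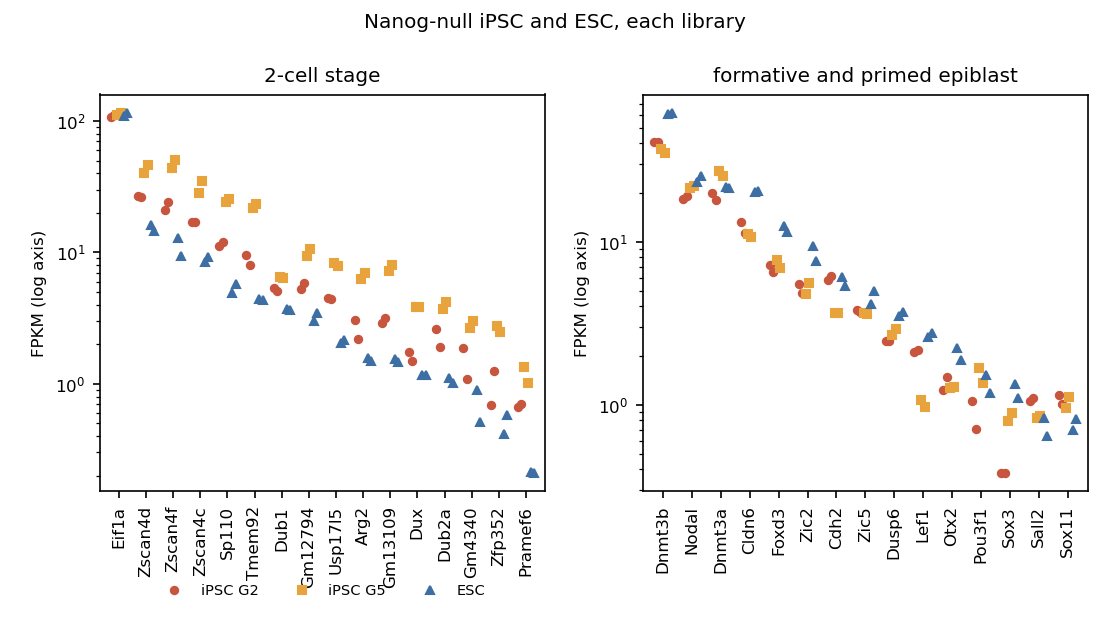
FPKM (log axis) of members of the 2-cell and formative lists in each library of clone G2, clone G5 and Nanog-null ESC. Apart from Eif1a, the 2-cell genes run from Nanog-null ESC up through G2 to G5, and the formative genes called lower lie below Nanog-null ESC in both clones.

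Formative and primed epiblast genes moved the other way. These genes mark the epiblast as it leaves naive pluripotency. Of 15 tested, 10 were lower in both clones, against 14.6% of all genes, and 0 were higher in edgeR, also at an unadjusted p under 0.05, and 0 in DESeq2 and limma. The median log2 change was -0.54 in G2 and -0.51 in G5. Dnmt3b, the main de novo methyltransferase gene of the epiblast, fell to 40.96 and 41.02 FPKM in G2 and 36.9 and 34.7 FPKM in G5, against 60.9 and 61.9 FPKM in Nanog-null ESC (edgeR adjusted p = 6.38e-10 and 1.95e-13). Foxd3, a forkhead repressor gene, fell to 7.23 and 6.497 FPKM in G2 and 7.69 and 6.92 FPKM in G5, against 12.4 and 11.5 FPKM in Nanog-null ESC. Zic2, a zinc finger gene, had 5.47 and 4.87 FPKM in the G2 libraries, 4.76 and 5.57 FPKM in the G5 libraries and 9.398 and 7.56 FPKM in the Nanog-null ESC libraries. In these 3 genes the clones were nearly level with each other and below both ESC libraries. Otx2, a regulator of the formative state, was low throughout (1.22 and 1.48 FPKM in the G2 libraries, 1.27 and 1.28 FPKM in the G5 libraries and 2.23 and 1.88 FPKM in the Nanog-null ESC libraries), and its call was lost without Nanog-null ESC 1 and without G2 1. Lef1, Sox3, Zic5, Dusp6, Nodal and Cldn6 completed the 10, while Pou3f1, Dnmt3a, Sall2, Sox11 and Cdh2 did not pass. The call on Lef1 was lost without any 1 of the G2 or Nanog-null ESC libraries, that on Sox3 without ESC 1 or either G5 library, and those on Dusp6 and Nodal without ESC 2. Fgf5 and Cer1 were too low to test. DESeq2 called 6 of the 15, and the fit of all 17 libraries 1. In WT of the AC prefix the median log2 iPSC-minus-ESC change of the list was 1.42, on 1 WT iPSC library, against 0.0082 over all genes.

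Genes of the DNA methylation machinery overlapped this pattern. Of 16 tested, 9 were lower in both clones, against 14.6% of all genes, and 0 higher in edgeR, DESeq2 or limma (1 higher in edgeR at an unadjusted p under 0.05), with medians of -0.19 in G2 and -0.22 in G5; Dnmt3l and Dnmt3b, given above, were among them. With all 17 libraries, 2 passed. General pluripotency genes were divided: of 22, 9 were lower (40.91%, against 14.6% of all genes) and 6 higher (27.27%, against 14.4%). Lin28a, an RNA-binding inhibitor of let-7 maturation, fell to 11.7 and 11.8 FPKM in G2 and 9.46 and 9.39 FPKM in G5, against 29.5 and 32.5 FPKM in Nanog-null ESC (log2 -1.41 ± 0.059 SE and -1.73 ± 0.061 SE; edgeR adjusted p = 8.89e-17 and 8.75e-19). Zfp296 rose to 24.4 and 28.7 FPKM in G2 and 21.4 and 23.2 FPKM in G5, against 11.1 and 10.5 FPKM in Nanog-null ESC. Nr0b1, which encodes Dax1, rose to 71.5 and 65.9 FPKM in G2 and 68.1 and 74.3 FPKM in G5, against 43.6 and 44.3 FPKM in Nanog-null ESC. Lefty2, an antagonist of Nodal, rose by log2 0.54 in G2 and 1.58 in G5. Sall4, Utf1, Zfp42, Dppa2, Gdf3 and Trim28 fell, each by less than 1 on the log2 scale, and the call on Zfp42 was lost without Nanog-null ESC 2 and without G5 1.

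Of 19 naive and LIF-response genes tested, 6 were lower in both clones (31.58%, against 14.6% of all genes) and 2 higher (10.53%, against 14.4%), and 11 did not pass in both. Dppa3 (Stella), which protects maternal methylation marks in the zygote, rose to 61.4 and 55.1 FPKM in G2 and 41.6 and 51.9 FPKM in G5, against 29.9 and 31.8 FPKM in Nanog-null ESC. Prdm14, a repressor of the methylation machinery, rose by log2 0.47 in G2 and 0.44 in G5, a call lost without G2 1, where Dppa3 was the 1 member higher. Pecam1 fell to 11.5 and 10.6 FPKM in G2 and 10.2 and 10.3 FPKM in G5, against 21.2 and 20.5 FPKM in Nanog-null ESC. Fgfbp1 fell by log2 1.53 in G2 and 0.71 in G5, and Socs3, a target and inhibitor of LIF signalling, by 0.23 in G2 and 0.76 in G5; without Nanog-null ESC 2 the call on Socs3 was lost. Tfcp2l1, a naive transcription factor gene, stood at 71.1 and 72.96 FPKM in the G2 libraries, 71.01 and 73.8 FPKM in the G5 libraries and 71.8 and 79.3 FPKM in the Nanog-null ESC libraries, and Klf2, Klf5, Tbx3, Nr5a2, Tcl1, Stat3, Il6st, Zfp57, Pim1 and Pim3 did not pass in both clones either. Esrrb was left out of the tests because the authors' status column did not mark it as OK in all libraries, and its deposited values were 83.5 and 77.6 FPKM in G2, 64.5 and 74.0 FPKM in G5 and 62.4 and 66.4 FPKM in Nanog-null ESC.

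Epithelial genes rose. They encode the adhesion molecules, tight junctions and keratins of epithelia, and fibroblasts gain them early in reprogramming. Of 21 tested, 17 were higher in both clones, against 14.4% of all genes, and 1 (Cldn6) was lower; the median log2 change was 0.68 in G2 and 0.86 in G5. Krt8 and Krt18 encode the keratin pair of simple epithelia. Krt8 had 378 and 348 FPKM in the G2 libraries, 813 and 711 FPKM in the G5 libraries and 229 and 214 FPKM in the Nanog-null ESC libraries (log2 0.72 ± 0.062 SE and 1.78 ± 0.063 SE; edgeR adjusted p = 4.52e-10 and 3.78e-18). Krt18 had 351 and 340.1 FPKM in the G2 libraries, 751 and 700.05 FPKM in the G5 libraries and 203 and 187 FPKM in the Nanog-null ESC libraries (log2 0.83 ± 0.056 SE and 1.89 ± 0.057 SE; edgeR adjusted p = 1.92e-12 and 2.99e-20). Both keratin genes were highest in G5, at more than 2-fold over Nanog-null ESC, and lay between in G2. Claudins seal tight junctions: Cldn4 had 256 and 241 FPKM in the G2 libraries, 312 and 271 FPKM in the G5 libraries and 119 and 122 FPKM in the Nanog-null ESC libraries, Cldn3 rose by log2 1.35 in G2 and 1.97 in G5 and Cldn7 by 1.25 in G2 and 1.61 in G5. Crb3, which sets the apical membrane, had 23.5 and 21.3 FPKM in the G2 libraries, 30.7 and 27.5 FPKM in the G5 libraries and 6.59 and 6.77 FPKM in the Nanog-null ESC libraries. Cdh1, the E-cadherin gene, changed less, at 86.3 and 83.2 FPKM in the G2 libraries, 83.2 and 78.8 FPKM in the G5 libraries and 67.7 and 69.7 FPKM in the Nanog-null ESC libraries, and Epcam rose by log2 0.27 in G2 and 0.60 in G5. Krt7 rose by 0.74 in G2 and 1.82 in G5, a call that was lost with the clones as one group. Ocln, Rab25 and Grhl2 did not pass in both clones.

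G2 was below G5 in 11 of the 21 epithelial genes and above it in 0, while 37.6% of all genes differed between the clones. Krt7, Krt8 and Krt18 lie on chromosome 15. Over all 592 tested genes of that chromosome the median log2 change was -0.031 in G2 and 0.15 in G5, while the G5 medians of the other chromosomes lay between -0.073 and 0.026. The part of this shift in the G5 keratin values was not tested. Summed over the list, the level was 1506 and 1422 FPKM in G2, 2552 and 2301 FPKM in G5 and 912 and 881 FPKM in Nanog-null ESC. In the WT libraries of the same prefix it was 187 FPKM in iPSC and 442 and 433 FPKM in ESC. The median log2 iPSC-minus-ESC change of the list in these WT libraries was -1.32, against 0.0082 over all genes. WT iPSC 2 and 3, of the other prefix, had 1263 and 1316 FPKM. The WT value thus rests on a library that differs from the other WT iPSC. With all 17 libraries, 4 of the 21 passed as higher in both clones.

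**Figure D4:**
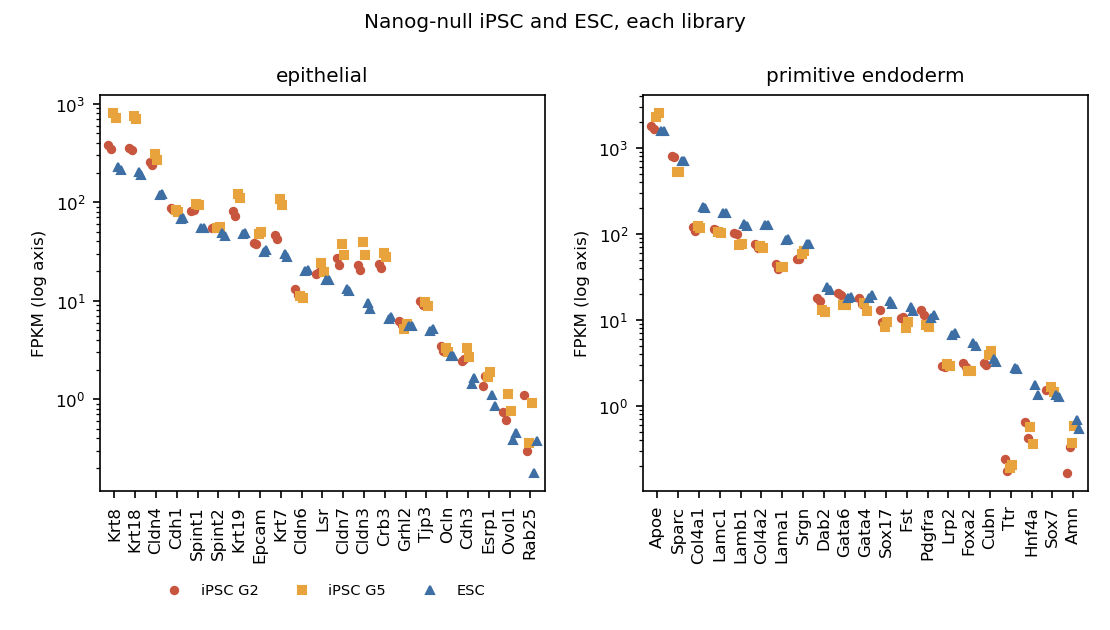
FPKM (log axis) of epithelial and primitive endoderm genes in each library of clone G2, clone G5 and Nanog-null ESC. Krt8 and Krt18 are highest in G5 and lowest in Nanog-null ESC, and the laminin and type IV collagen genes lie below Nanog-null ESC in both clones.

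Most primitive endoderm genes were lower, among them genes for the basement membrane proteins that this layer secretes. Of 22 tested, 14 were lower in both clones, against 14.6% of all genes, and 1 (Apoe) was higher; the median log2 change was -0.45 in G2 and -0.68 in G5. The summed level of the list was above both Nanog-null ESC libraries in 3 of the 4 iPSC libraries: it was 3250 and 3053 FPKM in G2, 3396 and 3669 FPKM in G5 and 3224 and 3215 FPKM in Nanog-null ESC. Apoe, a lipid carrier gene, made up most of it in G5, with 1829 and 1685 FPKM in the G2 libraries, 2315 and 2594 FPKM in the G5 libraries and 1592 and 1577 FPKM in the Nanog-null ESC libraries. Sparc, a matrix protein gene that was higher in G2 and lower in G5, had 801 and 789 FPKM in the G2 libraries, 522 and 524 FPKM in the G5 libraries and 706 and 716 FPKM in the Nanog-null ESC libraries. Lama1, the laminin alpha chain gene of the early embryo, fell to 44.3 and 39.1 FPKM in G2 and 41.3 and 41.04 FPKM in G5, against 85.1 and 87.7 FPKM in Nanog-null ESC (log2 -1.04 ± 0.056 SE and -1.07 ± 0.056 SE; edgeR adjusted p = 1.88e-14 and 4.17e-15). Col4a1, a type IV collagen gene, fell to 119 and 109.8 FPKM in G2 and 125 and 116 FPKM in G5, against 204 and 203 FPKM in Nanog-null ESC (edgeR adjusted p = 2.71e-12 and 6.29e-12). Lrp2 (megalin), an endocytic receptor gene, had 2.905 and 2.81 FPKM in the G2 libraries, 3.05 and 2.87 FPKM in the G5 libraries and 6.73 and 7.0996 FPKM in the Nanog-null ESC libraries. The clones agreed closely in all 3 genes, at more than 2-fold below the parental level for Lama1 and Lrp2. Ttr, a carrier of thyroid hormone made by the visceral endoderm, had 0.237 and 0.173 FPKM in the G2 libraries, 0.187 and 0.205 FPKM in the G5 libraries and 2.76 and 2.67 FPKM in the Nanog-null ESC libraries, a fall of log2 -3.64 ± 0.29 SE and -3.77 ± 0.30 SE at low levels (edgeR adjusted p = 5.52e-11 and 2.66e-11). The transcription factor genes of the layer were less uniform. Sox17 fell by log2 0.50 in G2 and 0.78 in G5, Foxa2 by 0.70 in G2 and 0.98 in G5, and Gata4 by 0.21 in G2 and 0.49 in G5. The call on Gata4 was lost without G2 2 and with the clones as one group, and that on Apoe without Nanog-null ESC 1, without ESC 2 or without G2 1. Gata6, the factor that specifies the lineage, stood at 20.6 and 19.5 FPKM in the G2 libraries, 14.8 and 15.1 FPKM in the G5 libraries and 18.2 and 18.7 FPKM in the Nanog-null ESC libraries and did not pass in both clones, and neither did Sox7, Pdgfra, Cubn, Amn or Sparc.

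Beyond the list, 10 of the 15 laminin and type IV collagen genes tested were lower in both clones, against 14.6% of all genes. Of this family 1, Lamb2, was higher, and the family was chosen after its values were seen. Some basement membrane genes are also high in fibroblasts and others are not: Col4a1 had 239 and 251 FPKM in WT MEF, while Lama1 had 0.768 and 0.788 FPKM there. Without genes enriched in WT MEF, 8 of the primitive endoderm genes passed as lower, and 8 did so with all 17 libraries.

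Trophoblast genes, which mark the other extraembryonic lineage, were split. Of 16 tested, 5 were higher in both clones and 5 lower (31.25% each, against 14.4% and 14.6% of all genes). Among those lower, Tfap2c had 16.2 and 16.02 FPKM in the G2 libraries, 18.7 and 16.1 FPKM in the G5 libraries and 37.4 and 33.7 FPKM in the Nanog-null ESC libraries, and Ascl2 had 10.2 and 12.6 FPKM in the G2 libraries, 11.2 and 10.2 FPKM in the G5 libraries and 27.8 and 25.2 FPKM in the Nanog-null ESC libraries. Among those higher were Krt7, Hand1 and the X-linked homeobox gene Rhox6, which had 106 and 104 FPKM in the G2 libraries, 206 and 177 FPKM in the G5 libraries and 74.8 and 77.8 FPKM in the Nanog-null ESC libraries. The call on Hand1 was lost without Nanog-null ESC 2 and without G2 2. Cdx2, the factor that specifies trophectoderm, stood at 4.48 and 4.29 FPKM in the G2 libraries, 3.66 and 2.601 FPKM in the G5 libraries and 5.79 and 4.91 FPKM in the Nanog-null ESC libraries and did not pass in both clones. Of 10 primitive streak and mesoderm genes tested, 3 were higher (30%, against 14.4% of all genes) and 2 lower (20%, against 14.6%). T (Brachyury) stayed at or below 1.02 FPKM in the iPSC libraries, against 0.718 and 0.858 FPKM in Nanog-null ESC.

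Genes of cholesterol synthesis rose in both clones. The pathway builds cholesterol from acetyl-CoA, and its genes are activated together by SREBP2 when sterols in the membrane are low. Of 19 tested, 16 were higher in both clones, against 14.4% of all genes, and 1 was lower; the median log2 change was 0.60 in G2 and 0.69 in G5. The clones differed in 10 of the 19 (edgeR adjusted p under 0.05) and in 37.6% of all genes. Of the 10, G2 was below G5 in 7 and above it in 3. Sqle, squalene epoxidase, had 103 and 108 FPKM in the G2 libraries, 106 and 112 FPKM in the G5 libraries and 64.9 and 64.3 FPKM in the Nanog-null ESC libraries (log2 0.72 ± 0.051 SE and 0.75 ± 0.051 SE; edgeR adjusted p = 5.30e-12 and 1.04e-12). Sc4mol (Msmo1), a sterol methyl oxidase gene, had 115 and 122 FPKM in the G2 libraries, 135 and 146 FPKM in the G5 libraries and 65.01 and 57.8 FPKM in the Nanog-null ESC libraries (edgeR adjusted p = 2.47e-13 and 5.78e-16). Both were raised without overlap, by a factor below 2 in Sqle and near 2 in Sc4mol. Cyp51 rose by log2 0.85 in G2 and 1.12 in G5 and Fdft1, the squalene synthase gene, by 0.67 in G2 and 0.94 in G5. Srebf2, the gene of the regulator, had 56.5 and 51.4 FPKM in the G2 libraries, 80.4 and 74.4 FPKM in the G5 libraries and 50.6 and 51.8 FPKM in the Nanog-null ESC libraries and passed in G5 but not in G2. Hmgcs1 is listed at 0 in all 6 libraries and was not tested.

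The fit of all 17 libraries called 10 of the 19 cholesterol genes higher in both clones, and no member was at least 2-fold higher in both. In WT of the AC prefix the median log2 iPSC-minus-ESC change of the list was -0.34, on 1 WT iPSC library, against 0.0082 over all genes. The summed level was 1146 and 1174 FPKM in G2, 1246 and 1291 FPKM in G5 and 783 and 771 FPKM in Nanog-null ESC, while the WT libraries of the same prefix had 703 FPKM in iPSC and 888 and 910 FPKM in ESC. The Nanog-null iPSC libraries thus lay above both kinds of WT cell in this sum, and the Nanog-null ESC libraries between WT iPSC and WT ESC.

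**Figure D5:**
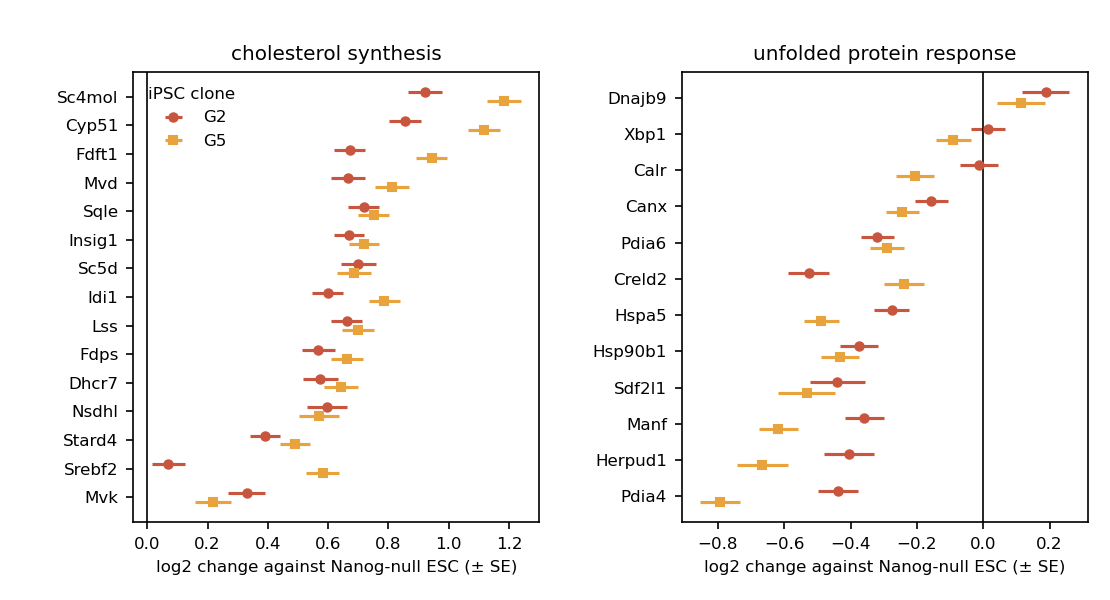
Log2 change against Nanog-null ESC for tested genes of cholesterol synthesis (left) and of the unfolded protein response (right). Points are the edgeR estimates of clone G2 and clone G5 and bars are ± SE; most cholesterol genes lie right of 0 and most chaperone genes left of it.

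Genes of the unfolded protein response fell. These genes encode chaperones and folding enzymes of the endoplasmic reticulum, and many are activated through the ER stress response element, a CCAAT box and a CCACG stretch separated by 9 bases. Of 12 tested, 9 were lower in both clones, against 14.6% of all genes, and 0 were higher in edgeR, also at an unadjusted p under 0.05, and 0 in DESeq2 and limma. The median log2 change was -0.34 in G2 and -0.36 in G5. Hspa5, which encodes the chaperone BiP, fell to 241 and 246 FPKM in G2 and 205 and 219 FPKM in G5, against 294 and 299.8 FPKM in Nanog-null ESC (log2 -0.28 ± 0.052 SE and -0.49 ± 0.053 SE; edgeR adjusted p = 9.37e-05 and 1.01e-08). Hsp90b1 (Grp94) fell to 208 and 210.4 FPKM in G2 and 191 and 216 FPKM in G5, against 261 and 283 FPKM in Nanog-null ESC. Pdia4, a disulfide isomerase gene, had 50.7 and 54.95 FPKM in the G2 libraries, 38.6 and 44.6 FPKM in the G5 libraries and 69.2 and 74.1 FPKM in the Nanog-null ESC libraries. In each of the 3 genes both clones were below both ESC libraries, by less than 2-fold. Herpud1, Pdia6, Canx, Sdf2l1, Creld2 and Manf also fell, and Creld2 had 29.4 and 26.98 FPKM in the G2 libraries, 34.04 and 35.7 FPKM in the G5 libraries and 39.7 and 41.8 FPKM in the Nanog-null ESC libraries. The call on Creld2 was lost without Nanog-null ESC 2, and that on Canx without ESC 1, ESC 2 or G2 1. Xbp1, Dnajb9 and Calr did not pass in both clones. With all 17 libraries, 2 of the 12 passed.

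The promoters of 4 of the genes that fell are shown because they hold the element. They run from 250 bases before to 50 bases after the gene's start, from RefSeq on GRCm38.p6, read 5′ to 3′ on the gene's strand, with the element in capitals on either strand.
Hsp90b1, chr10:86705395-86705694, minus strand: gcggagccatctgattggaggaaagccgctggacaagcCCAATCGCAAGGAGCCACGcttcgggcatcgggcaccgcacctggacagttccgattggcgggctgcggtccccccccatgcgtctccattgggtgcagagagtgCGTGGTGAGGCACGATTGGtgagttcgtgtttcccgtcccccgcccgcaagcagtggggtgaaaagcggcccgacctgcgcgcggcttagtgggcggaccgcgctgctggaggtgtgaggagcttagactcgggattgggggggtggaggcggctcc
Hspa5, chr2:34771840-34772139, plus strand: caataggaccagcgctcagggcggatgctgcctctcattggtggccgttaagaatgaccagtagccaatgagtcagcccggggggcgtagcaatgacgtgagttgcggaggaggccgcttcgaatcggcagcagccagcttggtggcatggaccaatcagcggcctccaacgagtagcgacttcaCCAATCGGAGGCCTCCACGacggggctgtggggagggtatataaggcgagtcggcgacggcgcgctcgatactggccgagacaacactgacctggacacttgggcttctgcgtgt
Pdia6, chr12:17266339-17266638, plus strand: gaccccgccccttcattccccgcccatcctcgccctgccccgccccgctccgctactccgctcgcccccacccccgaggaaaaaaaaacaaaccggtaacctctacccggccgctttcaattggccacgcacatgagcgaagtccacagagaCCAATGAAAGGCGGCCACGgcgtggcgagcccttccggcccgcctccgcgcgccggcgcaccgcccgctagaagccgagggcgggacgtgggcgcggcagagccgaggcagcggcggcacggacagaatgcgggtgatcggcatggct
Creld2, chr15:88819396-88819695, plus strand: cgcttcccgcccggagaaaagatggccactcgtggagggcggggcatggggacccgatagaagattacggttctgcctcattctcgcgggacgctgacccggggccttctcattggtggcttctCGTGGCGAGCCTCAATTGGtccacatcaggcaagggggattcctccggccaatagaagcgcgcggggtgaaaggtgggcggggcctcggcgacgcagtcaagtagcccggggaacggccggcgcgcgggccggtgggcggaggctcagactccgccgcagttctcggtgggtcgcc
The element was searched as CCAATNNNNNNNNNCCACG on both strands. It was in 6 of the 11 list members with a promoter sequence, and in 5 of the 8 that fell. The share was 0.137% of 27025 mouse genes and 0.198% of 10625 tested genes. Many genes of this response are activated through the element, so its frequency describes the list and not the fall. Hsp90b1 holds it at 2 places, and in Creld2 it lies on the opposite strand. A match describes these letters and no binding was measured.

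Interferon-response genes were mixed between the clones. They are induced by viral nucleic acids and by interferons through ISGF3, a complex that includes Stat2 and Irf9. Of 22 tested, 8 were higher in both clones, against 14.4% of all genes, and 1, the RNA sensor gene Ddx58, was lower; the median log2 change was 0.43 in G2 and 0.64 in G5. Rsad2 (viperin) had 9.903 and 10.4 FPKM in the G2 libraries, 25.1 and 21.6 FPKM in the G5 libraries and 3.43 and 3.57 FPKM in the Nanog-null ESC libraries (log2 1.54 ± 0.081 SE and 2.72 ± 0.076 SE; edgeR adjusted p = 3.16e-14 and 3.32e-20). Bst2 (tetherin), which holds budding virus at the membrane, had 68.2 and 66.4 FPKM in the G2 libraries, 157 and 141 FPKM in the G5 libraries and 46.9 and 46.2 FPKM in the Nanog-null ESC libraries (log2 0.53 ± 0.065 SE and 1.66 ± 0.061 SE; edgeR adjusted p = 1.33e-07 and 2.00e-18). Both genes were highest in G5 and lowest in Nanog-null ESC. Stat2 rose by similar amounts in the clones, with 14.6 and 15.04 FPKM in the G2 libraries, 14.3 and 14.7 FPKM in the G5 libraries and 9.38 and 8.96 FPKM in the Nanog-null ESC libraries. Oasl2 rose by log2 0.69 in G2 and 1.94 in G5, a call lost with the clones as one group, and Ifih1 by 0.87 in G2 and 1.66 in G5. Isg15 stood at 9.32 and 7.66 FPKM in the G2 libraries, 23.8 and 21.7 FPKM in the G5 libraries and 8.63 and 7.43 FPKM in the Nanog-null ESC libraries and passed in G5 only. With the clones as one group 3 of the 22 passed, and in the fit of all 17 libraries 4 did.
Rsad2, chr12:26456403-26456702, minus strand: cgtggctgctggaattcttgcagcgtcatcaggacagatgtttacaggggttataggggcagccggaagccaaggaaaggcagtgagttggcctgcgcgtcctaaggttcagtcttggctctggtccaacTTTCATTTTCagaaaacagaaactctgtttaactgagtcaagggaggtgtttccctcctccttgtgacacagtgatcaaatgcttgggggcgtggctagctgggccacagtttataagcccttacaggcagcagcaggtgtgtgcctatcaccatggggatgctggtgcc
Bst2, chr8:71537423-71537722, minus strand: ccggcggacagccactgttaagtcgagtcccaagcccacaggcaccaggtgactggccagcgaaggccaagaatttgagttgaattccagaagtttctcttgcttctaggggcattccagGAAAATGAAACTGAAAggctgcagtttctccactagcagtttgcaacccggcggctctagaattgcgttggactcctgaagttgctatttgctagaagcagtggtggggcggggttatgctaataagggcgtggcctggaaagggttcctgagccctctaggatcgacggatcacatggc
These promoters cover the same window as those above, and capitals mark the core of the interferon-stimulated response element, searched as GAAANNGAAA on both strands. The core was in 12 of the 20 members with a promoter sequence and in 4 of the 8 that rose. It was in 3.99% of 27025 genes and 3.45% of 10625 tested genes. Its frequency describes the list and not the rise.

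Imprinted genes moved in both directions: of 28 tested, 7 were higher in both clones and 7 lower. Each is 25%, against 14.4% and 14.6% of all genes. H19, a maternally expressed noncoding RNA, had 2202 and 1888 FPKM in the G2 libraries, 2134 and 1854 FPKM in the G5 libraries and 1292 and 1353 FPKM in the Nanog-null ESC libraries. Its neighbour Igf2, a paternally expressed growth factor gene, stood at 159 and 156 FPKM in the G2 libraries, 205 and 174 FPKM in the G5 libraries and 152 and 146 FPKM in the Nanog-null ESC libraries and did not pass in both clones. Zim1, maternally expressed, rose to 2.47 and 2.69 FPKM in G2 and 2.73 and 2.28 FPKM in G5, against 0.73004 and 0.741 FPKM in Nanog-null ESC. In these 3 genes the clones were close to each other, and only Igf2 had a clone near the ESC level. Meg3, the maternal noncoding RNA of the Dlk1 domain, fell to 56.7 and 51.7 FPKM in G2 and 67.5 and 66.6 FPKM in G5, against 77.2 and 85.04 FPKM in Nanog-null ESC, and Rian, from the same domain, fell by log2 0.67 in G2 and 0.19 in G5, a call lost without Nanog-null ESC 2 or G5 1. Slc38a4, an amino acid transporter gene on chromosome 15, rose to 356 and 332 FPKM in G2 and 589 and 567 FPKM in G5, against 170.03 and 171 FPKM in Nanog-null ESC. Plagl1, a paternally expressed zinc finger gene, went in opposite directions, with 33.8 and 33.8 FPKM in the G2 libraries, 4.003 and 3.95 FPKM in the G5 libraries and 12.8 and 16.95 FPKM in the Nanog-null ESC libraries. Gnas and its antisense transcript Nespas overlap, and the values of the pair cannot be told apart without strand information.

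Of 34 Hox genes tested, 7 were higher in both clones, which is 20.59% against 14.4% of all genes, and 0 lower in edgeR, also at an unadjusted p under 0.05, and 0 in DESeq2 and limma, with medians of 0.59 in G2 and 0.34 in G5 and low levels. Hoxd8 reached 6.02 and 6.46 FPKM in G2 and 5.56 and 6.09 FPKM in G5, against 4.45 and 3.78 FPKM in Nanog-null ESC. Hoxd3 and Hoxd4 rose by log2 1.72 in G2 and 1.20 in G5 and 1.06 in G2 and 1.31 in G5. All 7 calls were lost in the fit of all 17 libraries, and the call on Hoxd1 was lost without Nanog-null ESC 1, G2 2 or G5 1. Germline and meiosis genes were split, 5 higher and 5 lower of 23 (21.74% each, against 14.4% and 14.6% of all genes). Without G2 1 only 3 were lower. Taf7l, a paralogue of a general transcription factor subunit used in germ cells, had 10.3 and 9.22 FPKM in the G2 libraries, 22.7 and 21.1 FPKM in the G5 libraries and 4.32 and 4.005 FPKM in the Nanog-null ESC libraries, and Hormad1, a meiotic chromosome axis gene, had 4.47 and 5.54 FPKM in the G2 libraries, 3.64 and 4.497 FPKM in the G5 libraries and 10.5 and 8.66 FPKM in the Nanog-null ESC libraries. Tuba3a, a testis tubulin gene with near-identical copies, fell by log2 0.98 in G2 and 0.96 in G5.

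Genes of signalling pathways, among them pathways that 2i acts on, differed only in part. Of 18 genes of the ERK response, 6 were lower in both clones (33.33%, against 14.6% of all genes) and 1 higher (5.56%, against 14.4%). Egr1, an immediate early gene, fell by log2 1.85 in G2 and 2.16 in G5 at levels below 0.447 FPKM or equal to it in the iPSC, against 1.396 and 1.24 FPKM in Nanog-null ESC. The feedback inhibitor genes Spry2, Spry4 and Dusp6 fell and Dusp5 rose; the call on Spry4 was lost without Nanog-null ESC 1 or G2 1 and that on Dusp6 without ESC 2. Of 14 Wnt response genes 5 were higher (35.71%) and 2 lower (14.29%). G2 was above G5 in 12 of the 14, while 37.6% of all genes differed between the clones. Axin2, a feedback inhibitor of the pathway, had 22.6 and 20.3 FPKM in the G2 libraries, 17.5 and 18.7 FPKM in the G5 libraries and 15.3 and 16.2 FPKM in the Nanog-null ESC libraries. Sp5, a direct target, had 9.097 and 8.66 FPKM in the G2 libraries, 3.298 and 3.78 FPKM in the G5 libraries and 2.53 and 2.71 FPKM in the Nanog-null ESC libraries, a call lost with the clones as one group. Without G5 2 only 2 of the Wnt genes passed as higher and Sp5 was not among them, 3 passed without Nanog-null ESC 1, and without ESC 1, G2 1 or G2 2 a single member was lower. Rnf43, a ligase that removes Wnt receptors, rose by log2 1.41 in G2 and 1.08 in G5. In the Nodal and TGF-beta list 6 of 25 were higher (24%) and 5 lower (20%). Without Nanog-null ESC 2, 3 of the 25 were lower.

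The glycolysis and hypoxia, integrated stress response and heat shock lists had members that moved either way. Over all genes the shares were 14.4% higher and 14.6% lower. Of 26 glycolysis and hypoxia genes 7 were higher (26.92%) and 4 lower (15.38%), and 2 were lower without G2 1. Slc2a1, the main glucose transporter gene, had 181 and 179.5 FPKM in the G2 libraries, 191 and 163 FPKM in the G5 libraries and 100.5 and 102 FPKM in the Nanog-null ESC libraries, while Slc2a3, another transporter gene, had 111 and 111 FPKM in the G2 libraries, 92.5 and 91.4 FPKM in the G5 libraries and 135 and 139 FPKM in the Nanog-null ESC libraries. Ndrg1, a hypoxia-inducible gene, had 54.8 and 51.997 FPKM in the G2 libraries, 59.1 and 53.9 FPKM in the G5 libraries and 33.3 and 34.99 FPKM in the Nanog-null ESC libraries. Slc2a1 and Ndrg1 were above Nanog-null ESC in all 4 iPSC libraries and Slc2a3 was below it. Of 16 genes of the integrated stress response 3 were higher (18.75%) and 5 lower (31.25%). Chac1 was among the lower ones (log2 -1.51 in G2 and -0.88 in G5). The central factor Atf4 stood at 179 and 176 FPKM in G2, 280.2 and 298 in G5 and 189.7 and 187 in Nanog-null ESC. Of 10 heat shock genes 3 were higher (30%) and 4 lower (40%). Of 16 p53 targets 3 were higher (18.75%, against 14.4% of all genes) and 2 were lower, against 14.6% of all genes. Among these 16, G2 was above G5 in 13 and below it in 0, while 37.6% of all genes differed between the clones. Of 23 Polycomb genes 5 were lower (21.74%) and 2 higher (8.7%). Ezh2, the methyltransferase of H3K27, had 34.5 and 34.1 FPKM in G2, 41.2 and 39.3 in G5 and 48.6 and 52.02 in Nanog-null ESC. The higher pair was Cbx8 and Ezh1: Cbx8 lost its call without Nanog-null ESC 2, and both lost theirs without G2 1.

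Markers of other cell types were low or unevenly changed. Of the 35 fibroblast genes 7 were lower in both clones, which is 20% against 14.6% of all genes. In edgeR, DESeq2 and limma 0 were higher (1 in edgeR at an unadjusted p under 0.05). G2 was above G5 in 32, while 37.6% of all genes differed between the clones. Without Nanog-null ESC 1, 4 were lower. Col1a1, the main fibrillar collagen gene, had 278 and 303 FPKM in the G2 libraries, 107 and 114 FPKM in the G5 libraries and 213 and 208 FPKM in the Nanog-null ESC libraries, which differed from Nanog-null ESC in opposite directions. S100a4 fell to 9.101 and 8.36 FPKM in G2 and 9.43 and 6.98 FPKM in G5, against 25.96 and 22.1 FPKM in Nanog-null ESC, and Ctgf to 77.4 and 79.1 FPKM in G2 and 88.6 and 84.8 FPKM in G5, against 169.5 and 157 FPKM in Nanog-null ESC. Of 12 macrophage markers 6 were tested. Csf1r and Cd68 rose and Itgam, an integrin gene of myeloid cells, fell, with 0.522 and 0.423 FPKM in the G2 libraries, 0.657 and 0.626 FPKM in the G5 libraries and 1.39 and 1.06 FPKM in the Nanog-null ESC libraries. Cd68 is a lysosomal protein gene and had 37.4 and 35.8 FPKM in the G2 libraries, 50.3 and 53.1 FPKM in the G5 libraries and 16.2 and 15.03 FPKM in the Nanog-null ESC libraries. The summed macrophage level was 43.6 and 42.1 FPKM in G2, 58.3 and 59.3 FPKM in G5 and 22.3 and 20.1 FPKM in Nanog-null ESC, most of it Cd68. Ptprc, which defines blood cells, was at or below 0.0166 FPKM in the iPSC. Of 9 endothelial genes tested 1 was higher (11.11%, against 14.4% of all genes) and 3 lower (33.33%, against 14.6%). Of 9 neural genes 1 was higher (11.11%) and 3 were lower (33.33%). The gene that rose was the lipid carrier gene Fabp7 (log2 3.63 in G2 and 3.48 in G5). It had 2.46 and 2.16 FPKM in G2 and 2.44 and 1.75 FPKM in G5, against 0.191 and 0.179 FPKM in Nanog-null ESC. Without Nanog-null ESC 1, or without G2 1, 1 neural gene was lower, and without G5 2, 2 were higher.

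The same contrast was set beside that in WT cells, where the iPSC arm is 1 library, so that library and the Nanog genotype cannot be told apart. In WT the iPSC library was at passage 6 and the ESC at passages 10 to 15, while all Nanog-null libraries were at passage 6. Passage cannot be told apart from these either. The iPSC-minus-ESC difference without Nanog differed from that in WT in 7710 of 16612 genes (46.4%; edgeR, 11 libraries, 1 WT iPSC library). Dnmt3l had 18.5 FPKM in WT iPSC and 3.21 and 2.53 FPKM in WT ESC, so it was higher in iPSC in WT and lower in iPSC without Nanog (log2 difference of differences -4.77 ± 0.13 SE; edgeR adjusted p = 7.78e-12). Crb3 had 0.459 FPKM in WT iPSC and 8.55 and 10.4 FPKM in WT ESC, the opposite turn (log2 5.97 ± 0.31 SE; edgeR adjusted p = 2.87e-09). Slc40a1 was below 1 FPKM in WT iPSC and in WT ESC.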

How the data were processed

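RNA-seq was analysed in 6 Nanog-null libraries (4 iPSC, 2 ESC), with 5 WT libraries of the AC prefix (2 ESC, 1 iPSC, 2 partially reprogrammed) for the contrast with WT and all 17 libraries in an alternative. Per the labels' protocols, samples with a RIN above 7.5 were used and TruSeq v2 kits were used on about 250.0 ng of RNA per library. Cuffdiff 2.1.1, Bowtie2 2.0.5, TopHat2 2.0.7 and CASAVA appear without a role in the submitters' processing notes, as do the builds NCBIM37 and mm10, so no positions of the files' genes are printed.

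The deposited per-sample tables hold 28670 genes with an estimated count of fragments, an FPKM and a status, per the file headers. The deposited estimated counts were whole to within 0.01 for 97.47% to 98.21% of values in the 6 libraries and were rounded. The deposited FPKM values are the authors' own and describe levels. Genes needed a CPM (counts scaled by library total) of at least 0.5 in 2 of the 6 libraries and the status OK in all, which left 15606 genes, 6 of them on chromosome Y and left aside. The test was edgeR 4.0.16 (R 4.3.3; TMM scaling, robust quasi-likelihood, a term for G2, G5 and ESC, 3 residual degrees of freedom), with Benjamini-Hochberg adjustment over all genes and a threshold of 0.05 in each clone. Log2 changes come from this fit and so need not equal FPKM ratios. The contrast with WT had 5 residual degrees of freedom. The edgeR fit of the 6 libraries was run on counts simulated with its own spread, and the other fits were not. Replicates of a group differed beyond counting noise (chi-square per gene 4.44 in G2, 6.57 in G5 and 15.9 in Nanog-null ESC), so no pair was counted as 1 library.

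Alternatives were DESeq2 1.42.0, its size factors in edgeR, limma 3.58.1 on log2(FPKM + 1) and log2(FPKM + 0.1), other filters and library sets, the clones as one group, a replicate block, a 2-fold threshold, no fibroblast-enriched genes (at least 4-fold over WT ESC in WT MEF) and leaving out each library. Named genes are Nanog and the factors, the 15 largest rises and falls called in both clones with a mean of at least 5 FPKM, and up to 3 members per list; further members and families were chosen after their values were seen. The members, lists and tests were chosen with earlier results of these data known. Of the listed names 505 were found by symbol, 11 through their gene ID and 6 not at all. Promoters are RefSeq sequences on GRCm38.p6. Some genes of the lists and of the largest changes are not reported here and are not drawn in the figures; the counts of lists and of all genes include them.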

Additional observations from a re-analysis of the deposited data

Results flagged for a closer look

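Of 104 genes singled out by the naming rule and reported here, 5 had changes that differed between the clones by at least 2-fold (edgeR, adjusted p under 0.05), although both clones had passed against Nanog-null ESC. Krt7 (log2 change in G2 minus that in G5 of -1.083), the interferon-response genes Oasl2 (-1.249) and Rsad2 (-1.183) and the germline gene Taf7l (-1.116) rose less in G2 than in G5. The Wnt target gene Sp5 rose more in G2 (1.346).

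A further 59 values stand out because the iPSC-minus-ESC difference was not the same in Nanog-null cells as in WT cells (edgeR, 11 libraries, adjusted p under 0.05, at least 2-fold). All of them rest on 1 WT iPSC library, so a difference of that library from other WT iPSC and an effect of the genotype cannot be told apart. The later passage of the WT ESC cannot be told apart from these either. Each value is the log2 difference without Nanog minus that in WT. The naming rule took most of these genes for their large changes without Nanog, which enter each value. The number and signs of the values thus follow in part from that choice.

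Epithelial genes were among the highest: Crb3 at 5.973, Cldn7 at 5.16, Krt7 at 5.041 and Cldn3 at 2.976. The largest rises of the comparison included Rassf6 at 4.81, Plbd1 at 4.595, the secretin gene Sct at 3.36, the ferroportin gene Slc40a1 at 2.308, the channel gene Trpv2 at 2.281 and the synaptic gene Syp at 2.255. Also among them were E330020D12Rik at 2.252, Dpep1 at 2.25 and Fam78b at 1.401. The fitted WT changes of these genes lay below those without Nanog and were not tested on their own.

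Cholesterol genes were higher by 2.39 (Sc4mol) and 1.204 (Cyp51). Interferon-response genes were higher by 2.864 (Ifih1), 2.339 (Oasl2) and 2.248 (Rsad2). In glycolysis and hypoxia the values were 3.025 for Ndrg1 and 1.465 for the lactate exporter gene Slc16a3. Single genes of other lists were the Wnt feedback gene Rnf43 at 3.864, Dppa3 at 3.093, the VEGF receptor gene Kdr at 3.046, Cd68 at 1.804, Taf7l at 1.564, the lipoprotein receptor gene Vldlr at 1.501, Hoxd4 at 1.499 and Zfp296 at 1.445. Otx2 had 3.444: it was 0.544 FPKM in WT iPSC and 7.97 FPKM in WT ESC 1, while it fell by less without Nanog.

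The values below 0 were led by Ttr at -6.87, which is listed at 0 in both WT ESC libraries, so its size depends on the prior count of the fit. Of the largest falls, Pla2g1b had -4.889, Dnmt3l -4.768, Pramel6 -4.134, the tubulin gene Tubb3 -3.996, Pitx1 -3.554, Phlda2 -2.67, Mycn -2.113, G530011O06Rik -2.017 and Mid1 -1.109. Genes of the formative list and general pluripotency had -3.244 (Dnmt3b), -3.163 (Lin28a), -1.954 (Foxd3) and -1.822 (Zic2). The fitted WT change was below 0 for G530011O06Rik and Mid1 and above 0 for the others.

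Extraembryonic and mesodermal genes had -3.132 (Ascl2), -3.018 (Lrp2) and -2.933 (the retinoic acid hydroxylase gene Cyp26a1). The angiopoietin receptor gene Tek had -3.307. In signalling, Egr1 had -3.282, Myc -2.219 and Sp5 -1.397. Fibroblast genes had -2.303 (S100a4) and -1.277 (Ctgf), and germline genes -1.954 (Hormad1) and -1.662 (Tuba3a). The remaining values were -1.758 for the heat shock gene Hsph1, -1.534 for the 2-cell gene Pramef6, -1.269 for Fgfbp1, -1.094 for the chaperone gene Sdf2l1 and -1.01 for the p53 target gene Eda2r. For Pramef6 and Sp5 the fitted change was above 0 in both genotypes and smaller without Nanog.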

How the results depend on the processing

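The number of genes called in both clones was 4523, with 3194 to 4549 when 1 library was left out. Those higher numbered 1664 to 2257 and those lower 1530 to 2292. Calls in G2 ranged over 5093 to 7633, calls in G5 over 6106 to 8000, calls between the clones over 4109 to 5598 and calls against WT over 6258 to 9326.

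In the fit of all 17 libraries with a term for code prefix, 993 genes passed in both clones (571 higher, 422 lower), 1674 in G2, 2683 in G5, 1107 between the clones and 2777 against WT. Of the 4523 genes 21.95% kept their call there, and the share of higher calls was 57.5%, against 49.8%. Restricting the test to a mean of at least 5 FPKM tested fewer genes and left 2891 (1490 higher, 1401 lower), 4470 in G2, 5003 in G5, 3755 between the clones and 5058 against WT. A 2-fold threshold left 578 (338 higher, 240 lower), 982 in G2, 1360 in G5, 793 between the clones and 3152 against WT, with 58.5% of the calls higher. In the fit of all 11 libraries of the AC prefix 1447 genes were lower and 3678 differed between the clones. DESeq2 found 3893 between the clones and 3175 in both, 70.1% of the 4523 shared. Limma gave 1477 lower with a pseudocount of 1 and 1421 with 0.1. The causes of these differences were not tested where the settings themselves do not give them.

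Of 260 called genes that are list members or named by the rule, 162 lost their call in the fit of all 17 libraries, 57 in that of 11, 56 with the clones as one group, 27 in DESeq2 and 8 to 32 when 1 library was left out. No call reversed. Pou5f1, which passed in neither clone against Nanog-null ESC, had a mean log2 change of -0.017643, from -0.037667 to 0.01234 when 1 library was left out, and changed sign without G2 2 (0.01234) and without G5 1 (0.0055573).

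Libraries with the same replicate number did not deviate together (correlations of -0.0265, -0.0397 and 0.0217 between the groups), so the numbers do not pair them. With a replicate block 4550 genes passed in both clones (2257 higher, 2293 lower), 7113 in G2, 8121 in G5, 5939 between the clones and 7541 against WT, and of the 260 calls those on Dux and Nespas were lost.

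Depth limits the genes with few fragments, Hox, macrophage and T among them, and the fits have 3 residual degrees of freedom.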

Other observations

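The families below were chosen after their values were seen and are given as counts, beside 14.4% of all genes higher and 14.6% lower in both clones. All 7 tested genes of the Serpinb9 cluster, which encode relatives of a granzyme B inhibitor, were higher. Of 7 pregnancy-specific glycoprotein genes 4 were higher, but their near-identical copies can share fragments. Of 7 Xlr genes, a family of the X chromosome, 6 were lower. Related copies of the Serpinb9 and Xlr genes can share fragments as well, so their members are not separate counts. Of 6 Rhox genes, also X-linked, 3 were higher and 3 lower. Of 11 claudin genes 6 were higher and 1 lower, and of 15 keratin genes 5 were higher. Of 8 Hoxd genes 4 were higher, and of 6 Ceacam genes 3 were higher and 1 lower. Other families changed little: of 7 Mage genes 1 was higher, and of 21 protocadherin genes 1 was lower.

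By chromosome, the share of genes higher in both clones was largest on chromosome 6, at 19.05% of 756 genes, and the X chromosome had 17.27% higher and 16.19% lower of 556.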
